A study of Mus musculus with 3 samples.

Results

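The regions described here are the called ChIP-seq peaks of mouse islets that lie in, overlap or come within 5 kb of a protein-coding gene. They were chosen by position alone, as peaks on chromosomes 1 to 19 and X whose interval touched, or ended at most 5000 bp from, the span of a RefSeq protein-coding gene (GRCm38.p6, the build also called mm10). The rule kept 234 peaks of 829 on these chromosomes and of 870 in all. Chromatin had been prepared from primary islets, the hormone-secreting cell clusters of the pancreas, and each of the 3 libraries gave 1 peak list. Control islets (genotype "con") with the Arid1a antibody (Abnova, MAB15809) gave 67 of 241 peaks, and islets of the genotype "arid1a ko" with the same antibody gave 103 of 365. Control islets with the antibody labelled HADC6 (Cell signaling, #7612), read here as HDAC6 from the series title, gave 64 of 223. In the series' text the mutant mice are called PCAL/L and described as lacking Arid1a in the pancreas, and the Cre line that deleted the gene is not given in the sources used here. Islets were pooled, and all 3 samples were fixed with 1% formaldehyde for 10 min. Because each group is a single library, genotypes and antibodies are set side by side without a test, and no value carries a replicate error. A peak list holds no expression values, so neither islet markers nor the loss of Arid1a could be checked, and a gene without a peak is not a gene with a measured level of 0.

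Arid1a is part of BAF, a form of the SWI/SNF complex that spends ATP to slide or evict nucleosomes, and it is best known at promoters and enhancers. HDAC6 removes acetyl groups mainly from cytoplasmic proteins such as tubulin, unlike the histone deacetylases of the nucleus. In ChIP-seq a peak is a place where fragments pulled down by the antibody outnumber those of a control library, here a library made without immunoprecipitation (no-IP). The fold printed for each peak is the authors' own ratio of ChIP fragments to this background, and the pileup counts the ChIP fragments that overlie the summit, the highest point of the peak. Both serve to describe and rank peaks within a list.

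A few stretches of promoter sequence are shown first, because the peaks at the starts of genes fell on stretches of very different composition. Each sequence is the 250 bases before a RefSeq transcription start site (GRCm38.p6), read 5′ to 3′ on the strand of the gene, with the bases inside a called peak in capitals. For Neurog3, the strongest site with both antibodies in control islets, the stretch is chr10:62132840-62133089 on the + strand. It begins 5 bases beyond the upper end of the peaks and so holds no capitals. For Ifrd1, the strongest start-site peak that was called with HDAC6 alone, it is chr12:40223190-40223439 on the − strand. Amigo2 at chr15:97247288-97247537 on the − strand and Septin9 at chr11:117265996-117266245 on the + strand stand for start sites in the knockout list alone. Prmt3 at chr7:49778108-49778357 on the + strand was called in the control Arid1a list alone. Tmem267 at chr13:119488223-119488472 on the + strand is shown with its knockout Arid1a peak, which overlaps an HDAC6 peak. Gm9758 at chr5:14914890-14915139 on the − strand, with its knockout peak, and Gm3115 at chr14:4083914-4084163 on the + strand, with its control Arid1a peak, stand for predicted genes called in both Arid1a lists.
Neurog3: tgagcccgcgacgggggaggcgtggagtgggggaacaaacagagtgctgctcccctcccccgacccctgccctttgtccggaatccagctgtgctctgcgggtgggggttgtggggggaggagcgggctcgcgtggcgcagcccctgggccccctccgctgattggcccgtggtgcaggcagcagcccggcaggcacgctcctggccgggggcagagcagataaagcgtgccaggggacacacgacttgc
Ifrd1: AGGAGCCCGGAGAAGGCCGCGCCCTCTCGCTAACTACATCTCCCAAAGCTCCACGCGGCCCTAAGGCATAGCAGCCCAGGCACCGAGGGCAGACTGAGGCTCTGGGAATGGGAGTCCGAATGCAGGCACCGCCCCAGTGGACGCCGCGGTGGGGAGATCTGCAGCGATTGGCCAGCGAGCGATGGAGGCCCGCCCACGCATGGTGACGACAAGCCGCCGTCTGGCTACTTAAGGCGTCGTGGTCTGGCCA
Amigo2: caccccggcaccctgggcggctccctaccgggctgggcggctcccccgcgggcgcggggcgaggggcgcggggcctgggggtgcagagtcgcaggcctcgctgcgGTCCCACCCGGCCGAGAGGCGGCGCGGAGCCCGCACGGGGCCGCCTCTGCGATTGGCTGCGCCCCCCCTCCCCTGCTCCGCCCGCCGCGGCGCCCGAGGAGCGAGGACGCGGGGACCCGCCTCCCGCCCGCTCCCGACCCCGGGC
Septin9: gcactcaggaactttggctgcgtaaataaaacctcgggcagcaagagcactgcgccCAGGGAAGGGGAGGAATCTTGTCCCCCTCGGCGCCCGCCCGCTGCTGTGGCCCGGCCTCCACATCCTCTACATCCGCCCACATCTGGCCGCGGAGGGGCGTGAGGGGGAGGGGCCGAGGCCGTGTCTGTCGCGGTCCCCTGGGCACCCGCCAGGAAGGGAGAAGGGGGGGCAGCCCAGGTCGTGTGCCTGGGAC
Prmt3: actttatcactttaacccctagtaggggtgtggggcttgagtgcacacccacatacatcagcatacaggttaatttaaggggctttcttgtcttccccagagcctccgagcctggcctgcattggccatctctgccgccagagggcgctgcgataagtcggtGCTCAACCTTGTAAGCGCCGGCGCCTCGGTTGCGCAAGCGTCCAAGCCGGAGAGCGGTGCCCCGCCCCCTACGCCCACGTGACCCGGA
Tmem267: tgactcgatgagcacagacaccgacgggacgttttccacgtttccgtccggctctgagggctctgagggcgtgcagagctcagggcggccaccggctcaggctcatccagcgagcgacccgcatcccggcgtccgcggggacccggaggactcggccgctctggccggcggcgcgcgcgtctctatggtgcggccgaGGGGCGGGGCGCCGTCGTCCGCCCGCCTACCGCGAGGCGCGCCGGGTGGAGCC
Gm9758: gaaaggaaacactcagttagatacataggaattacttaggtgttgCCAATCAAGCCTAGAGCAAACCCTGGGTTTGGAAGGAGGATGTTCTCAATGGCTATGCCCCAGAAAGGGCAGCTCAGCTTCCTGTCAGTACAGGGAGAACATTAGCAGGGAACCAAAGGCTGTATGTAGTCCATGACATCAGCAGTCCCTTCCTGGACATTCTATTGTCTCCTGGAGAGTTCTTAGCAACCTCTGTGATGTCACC
Gm3115: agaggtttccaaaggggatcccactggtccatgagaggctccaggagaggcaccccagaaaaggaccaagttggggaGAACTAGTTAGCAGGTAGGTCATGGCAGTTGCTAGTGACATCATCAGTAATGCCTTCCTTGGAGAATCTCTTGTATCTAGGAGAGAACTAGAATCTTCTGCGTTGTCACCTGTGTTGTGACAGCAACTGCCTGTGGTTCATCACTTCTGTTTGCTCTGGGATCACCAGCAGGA

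Near-gene peaks took about the same share of every list. The share was 27.8% for control Arid1a (exact binomial 95% interval 22.2% to 33.9%), 28.2% for knockout Arid1a (23.7% to 33.1%) and 28.7% for control HDAC6 (22.9% to 35.1%). All intervals given here cover counting error only and take neighbouring peaks as independent. Most of these peaks touched the gene span itself, namely 49 of 67 in control Arid1a (73.1%), 85 of 103 in knockout Arid1a (82.5%) and 52 of 64 with HDAC6 (81.25%). In that order the lists had a peak in or within 5 kb of 57, 99 and 64 of 21627 protein-coding genes, or 0.264%, 0.458% and 0.296% of them. Spread over the 1177 Mb of gene spans with 5 kb on either side, the near-gene peaks came to 0.0569, 0.0875 and 0.0544 per Mb. What part of the chromosomes lies in this territory, and what part of the territory is gene span, was not computed. The shares of peaks near genes and touching them therefore show neither a preference for genes nor an avoidance of them.

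The near-gene peaks were modest in height, apart from a few. Median fold was 4.75 for control Arid1a (2.02 to 92.7), 4.94 for knockout Arid1a (2.12 to 14.5) and 4.97 for HDAC6 (2.30 to 279.6), beside 4.93, 5.13 and 5.21 for the peaks farther from genes. Median pileup was 17, 14 and 16 fragments. A fold of 10 or more was reached by 4, 2 and 3 near-gene peaks. The no-IP background at the summit, recovered from fold and pileup, had a median of 2.10, 1.60 and 2.11 fragments, and was 10 fragments or more at 5.97%, 4.85% and 3.125% of near-gene peaks against 8.62%, 9.92% and 13.2% of farther ones. Sequencing depth is unknown. The smallest background of each list was 1.64, 1.23 and 1.496 fragments, so the knockout list was the longest and had the lowest floor.

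**Figure D1:**
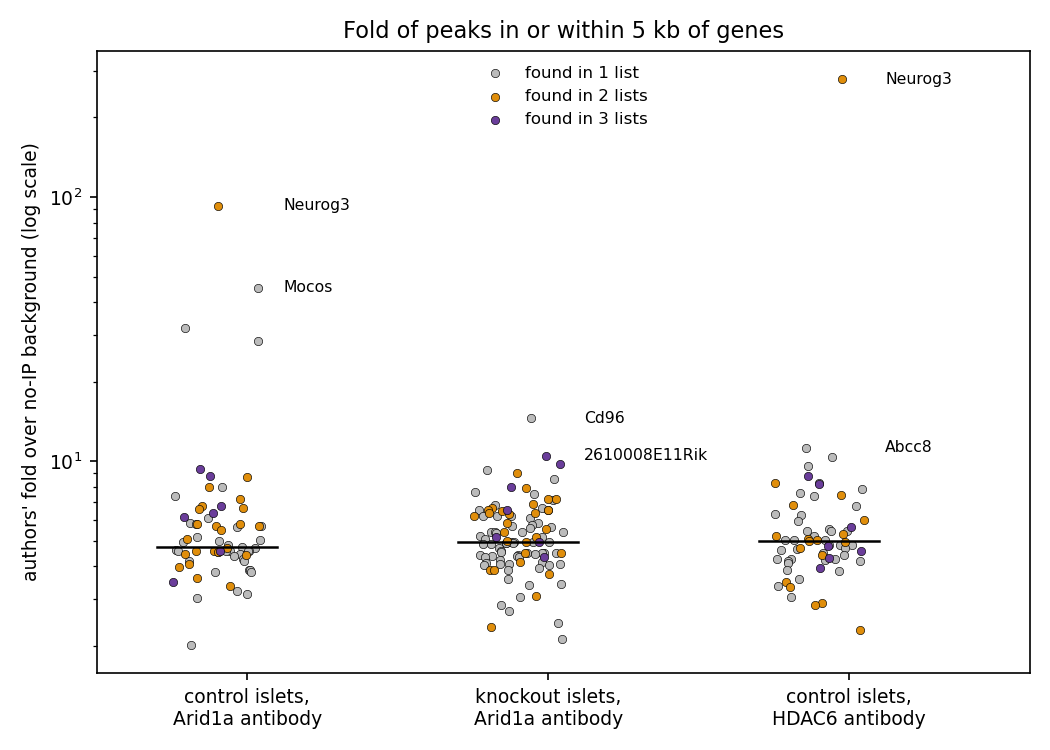
The authors' fold of every near-gene peak over the no-IP library (y axis, log scale), with 1 point per peak in each of the 3 lists (x axis, sideways spread random), coloured by the number of lists in which the site was called, a line at the median and the genes of the 2 highest peaks named from the top down. Neurog3 stood at 92.7 and 279.6 in the control lists, while the knockout Arid1a list reached 14.5 at Cd96.

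Of the islet transcription factors in the gene lists, Neurog3 and Pdx1 had a peak nearby, both in control Arid1a, and each was called in 1 further list, HDAC6 for Neurog3 and knockout Arid1a for Pdx1. Neurog3, which starts endocrine differentiation in the embryonic pancreas, had the peak of highest fold in both control lists and no peak in the knockout list. Its fold was 92.7 with a pileup of 285 for Arid1a, and 279.6 with a pileup of 1164 for HDAC6. The lower ends of these peaks of different antibodies were 3 bp apart and the upper ends 0 bp apart. The source of such matching ends was not tested, and the reads that would show it were not used here. The next highest near-gene peak of the HDAC6 list had a fold of 11.2, at Abcc8. The Neurog3 peaks lay 256 bp from the gene span, and their summits were 373 bp (Arid1a) and 900 bp (HDAC6) before the transcription start. The nearest knockout Arid1a peak was 9499 kb away.

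Pdx1, a factor of pancreas formation and later of beta cell identity, had peaks in both Arid1a lists and none in the HDAC6 list. A control peak at chr5:147266053-147266901 had a pileup of 15 and a fold of 5.67, and the knockout peak at chr5:147266012-147266412 had the same pileup and a fold of 6.89. Their summits were 128 bp apart, at 3733 bp and 3861 bp before the start of Pdx1. A further control peak, 2124 bp before the start, had a fold of 3.86 and no counterpart. It began 1356 bp beyond the end of the knockout peak. The other 31 genes of the endocrine development list had no near-gene peak in any list.

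Of the genes that carry beta cell secretion, Abcc8 and Cpe had a peak with HDAC6 and none with Arid1a. Abcc8 encodes the sulfonylurea receptor of the ATP-sensitive potassium channel, and its peak inside the gene (chr7:46138102-46138427) had a pileup of 34 and a fold of 11.2. Cpe encodes the carboxypeptidase that trims prohormones, and its peak (chr8:64622945-64623298) had a pileup of 12 and a fold of 5.03, close to the median of the list. With Pdx1 these were 3 of the 31 genes of the beta cell list with a peak in any library, where 0.768% of all protein-coding genes had one. The beta cell list was written with earlier results of these data known. Control Arid1a had its closest peaks 1862 kb from the Abcc8 peak and 7753 kb from the Cpe peak.

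Among listed markers of other pancreatic and islet-associated cells, only Cftr and Cd96 had a peak, in the knockout list. Of all protein-coding genes, 0.458% had a peak in that list and 0.768% in any. Cftr, the chloride channel of duct cells, was the 1 of 15 ductal genes with a peak (chr6:18266474-18266808, pileup 18, fold 8.54). Cd96, a receptor of T and natural killer cells, was the 1 of 23 stromal, vascular and immune genes, and its peak inside the gene (chr16:46078344-46078718) had the highest near-gene fold of that list, 14.5 at a pileup of 45. Both peaks were called in the knockout list alone, with the nearest control Arid1a peak 4891 kb from Cftr and 2440 kb from Cd96. Immune receptor genes outside the gene lists had peaks elsewhere, Tigit in control Arid1a (fold 4.55) and Klra2 with HDAC6 (5.46). The Tigit peak also lay in or within 5 kb of Zbtb20, so it does not belong to Tigit alone. A peak in a gene measures no expression, so these values say nothing of how many such cells were in the islets.

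Among the chromatin genes, Hdac7, a class IIa deacetylase, had a knockout Arid1a peak 209 bp inside its start, with a pileup of 11 and a fold of 3.89. It was the 1 of 18 deacetylase genes with a peak. None of the 25 SWI/SNF genes had a near-gene peak, nor did any gene of the lists for other endocrine cells, acinar cells, exocytosis, insulin signalling and glucose metabolism, HDAC6 partners and cytoskeleton, autophagy, pancreatic neoplasia or housekeeping. Over all 15 lists, 11 of 352 genes had a peak in any of the 3 libraries, with 4 in control Arid1a, 7 in knockout Arid1a and 5 in HDAC6. These gene lists were written with earlier results of these data known. The shares over all protein-coding genes were 0.768% in any library and 0.264%, 0.458% and 0.296% in the single lists.

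In the control Arid1a list the peak in Mocos, which sulfurates the molybdenum cofactor, followed Neurog3 with a fold of 45.3 at a pileup of 127. It lay inside the gene and was in that list alone, with the nearest knockout Arid1a peak 2576 kb away. The predicted gene Gm51598 had a fold of 9.36, and Zfp438 (8.002) and Vmn2r50 (7.40) were lower and both in this list alone.

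In the knockout list the high peaks were closer to each other. After Cd96 came 2610008E11Rik (10.5), Akap9 (9.74), Efr3a (9.24), Fgf14 (8.99), Cftr (8.54), Ctnnd2 (7.99), Xrcc4 (7.93) and the predicted genes Gm3239 (7.64) and Gm12888 (7.52). Efr3a, a membrane anchor of phosphatidylinositol 4-kinase, was in this list alone. In the HDAC6 list, Abcc8 was followed by Ptprd (10.4), the lysosomal membrane protein gene Sidt2 (9.55), Akap9 (8.82), the lipid transporter gene Abca7 (8.30), Xrcc4 (8.28), Ctnnd2 (8.23), Ifrd1 (7.82) and Gm10340 (7.57). Of these, Abcc8, Ptprd, Sidt2, Abca7, Ifrd1 and this Gm10340 site were called with HDAC6 alone.

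Counting overlapping peaks as 1 site gave 186 near-gene sites. The knockout list alone held 69 of them, the HDAC6 list alone 39 and the control Arid1a list alone 37. Both Arid1a lists without HDAC6 shared 16 sites, both control lists without the knockout 8, and knockout Arid1a with HDAC6 10. In all 3 lists there were 7 sites.

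The 7 sites in every list lay at the named genes Ctnnd2 and Akap9 and at 5 clone or predicted genes. Ctnnd2 encodes delta-catenin, which binds classical cadherins at cell junctions, mainly in neurons. Its site (chr15:30221880-30222270 in the knockout list) had its control summit 49556 bp inside a gene of 857 kb, with folds of 8.80 in control Arid1a, 7.99 in knockout Arid1a and 8.23 with HDAC6 and pileups of 26, 19 and 23. Akap9, which tethers protein kinase A at the centrosome and Golgi, had folds of 6.13, 9.74 and 8.82 and pileups of 18, 25 and 23 (chr5:4053585-4054495 with HDAC6). The site in 2610008E11Rik had folds of 4.58, 10.5 and 4.56, over backgrounds of 3.15, 1.67 and 3.17 fragments. Gm51598 had 9.36, 6.53 and 5.64, Gm10340 6.78, 5.18 and 4.30, Gm32966 6.35, 4.94 and 4.78, and Gm21149 3.49, 4.33 and 3.93. Of the 7 sites, 2610008E11Rik and Akap9 had their highest fold in the knockout list, as did Gm21149, while the other 4 had it in control Arid1a. At Gm21149 the knockout pileup was the lowest, 25 fragments against 30 in control Arid1a and 32 with HDAC6. Folds of different lists stand on different backgrounds, so this order does not rank the libraries by binding.

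There were 16 control Arid1a peaks near genes that overlapped a knockout Arid1a peak and no HDAC6 peak. Fgf14, an intracellular modulator of voltage-gated sodium channels, had a fold of 5.77 in control and 8.99 in knockout islets with summits 19 bp apart. Phka1, the regulatory subunit of muscle phosphorylase kinase, had folds of 7.21 and 7.19. Cntnap5b, a contactin-associated protein gene, had peaks of equal pileup, 16 fragments, and folds of 5.51 and 6.37. Csmd1, a large membrane protein that restrains complement, had folds of 4.55 and 4.94, and the glycosyltransferase-like gene Gtdc1 4.41 and 6.48. The site beside Mid1, a microtubule-bound ubiquitin ligase gene, had 3.99 and 6.38 over high backgrounds of 11.0 and 7.93 fragments. Including Pdx1, these were 7 genes, and the other sites of the group lay at predicted genes and Speer4d (4.54 and 3.87).

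Of the 8 sites that both control lists shared and the knockout list lacked, the strongest after Neurog3 was in Fhit, a nucleotide hydrolase gene that spans a chromosomal fragile site, with folds of 8.002 for Arid1a and 7.42 for HDAC6 and summits 6 bp apart (chr14:10930638-10930969). Mov10, an RNA helicase gene, had 5.07 and 5.04 with summits 31 bp apart. Gm10340 had 5.78 and 4.95 at another of its sites, Gm10406 5.69 and 4.41, Gm32966 4.70 and 5.29, and Gm40369 3.38 and 2.90. The Neurog3 site was the exception in fold. Its summits were 527 bp apart, the widest gap of these 8 sites, but a Gm32966 site found in every list had 740 bp between its control Arid1a and HDAC6 summits. Over all near-gene overlaps of these lists, the median distance between summits was 43.5 bp in 14 pairs, against 77 bp in 24 pairs for control and knockout Arid1a and 30 bp in 17 pairs for HDAC6 and knockout Arid1a.

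Sites in the knockout Arid1a and HDAC6 lists, which share neither genotype nor antibody, were led by Xrcc4, a partner of DNA ligase IV in end joining, with folds of 7.93 and 8.28 and summits 13 bp apart. The group also held Gas8 (5.52 and 5.002), Myo3a (3.09 and 3.33), Cep128 (2.35 and 2.30), Tmem267 at a pair of sites, 4921539E11Rik and predicted genes. The Cep128 peaks stood on backgrounds of 48.0 and 61.2 fragments.

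**Figure D2:**
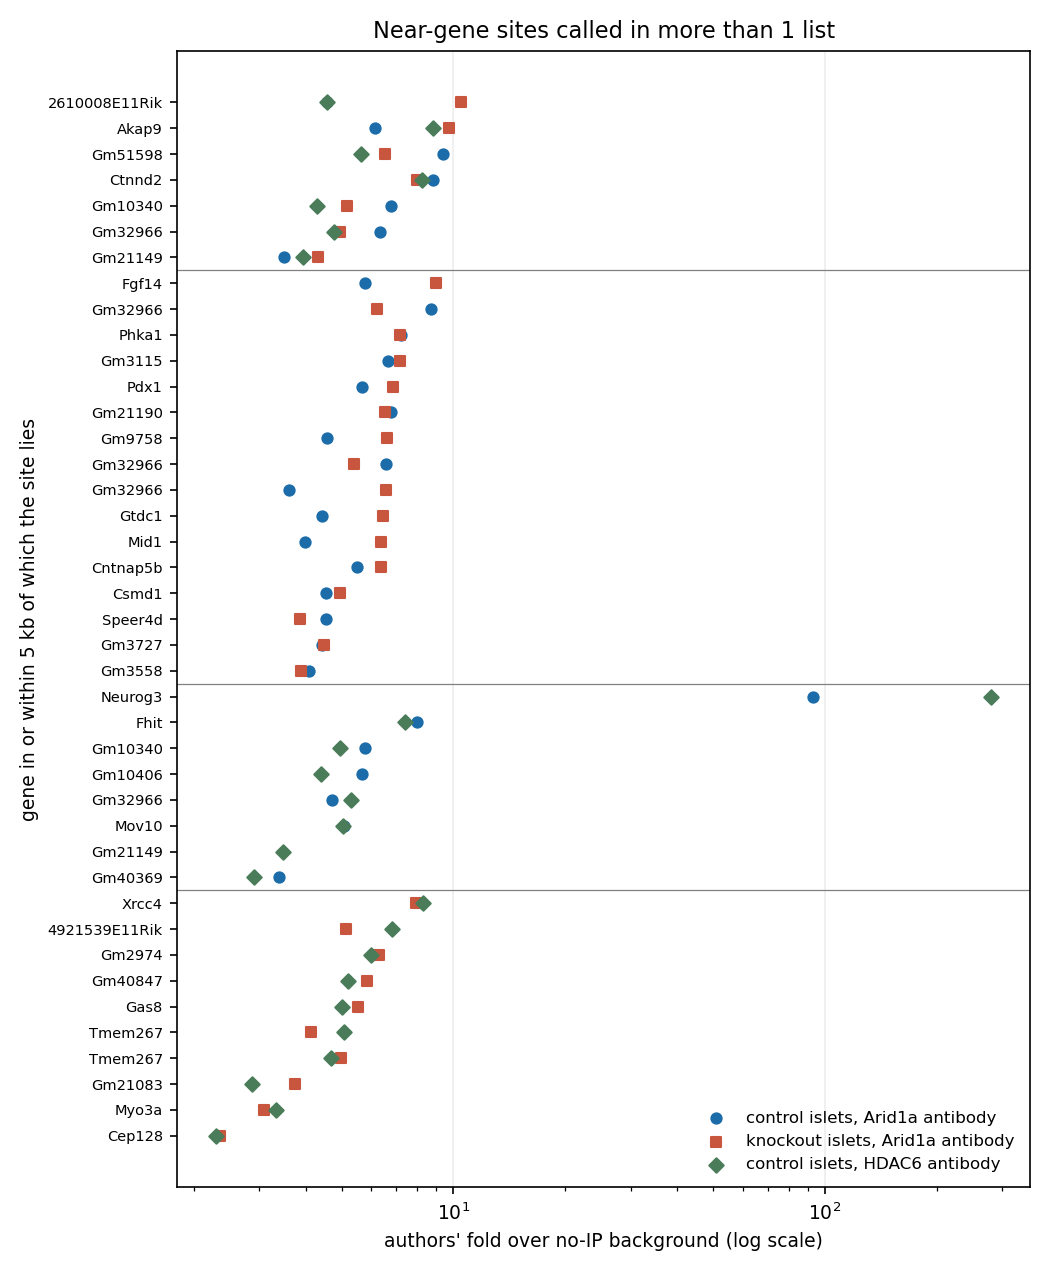
Near-gene sites called in more than 1 list (rows, named by gene), with the authors' fold over the no-IP background in each list (x axis, log scale, 1 marker shape per list), in blocks for all 3 lists, both Arid1a lists, both control lists, and knockout Arid1a with HDAC6. Neurog3 lies far to the right of the other sites, and the control Arid1a partner at 1 Gm21149 site is not drawn because it lay 5111 bp from the gene, just outside the limit.

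As shares of a list, the overlaps of near-gene peaks with each other list lay below those of all peaks on the same chromosomes, which was not tested pair by pair. Of the near-gene control Arid1a peaks, 34.3% (23 of 67, 23.2% to 46.9%) overlapped a knockout peak and 20.9% (14 of 67, 11.9% to 32.6%) an HDAC6 peak, where all control peaks gave 39.0% and 33.2%. Of the knockout peaks, 23.3% (24 of 103) overlapped a control Arid1a peak and 16.5% (17 of 103) an HDAC6 peak, where all knockout peaks gave 26.0% and 23.3%. HDAC6 peaks overlapped control Arid1a in 23.4% (15 of 64) and knockout Arid1a in 26.6% (17 of 64), where all HDAC6 peaks gave 35.9% and 38.6%. Whether the lists were called against 1 common no-IP library is not given in the sources used here. Sites found in more than 1 list had higher folds than sites found in 1, with medians of 5.68 against 4.55 in control Arid1a, 6.03 against 4.87 in knockout Arid1a and 5.002 against 4.82 with HDAC6.

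The planned comparison set the share of near-gene peaks found in any other list against the share of farther peaks (Fisher's exact test, two-sided, Benjamini-Hochberg adjusted over 3 tests, across peaks of single libraries). In the HDAC6 list it was 39.1% near genes and 55.3% farther away, an odds ratio of 0.517 (Fisher's exact p = 0.0378, adjusted p = 0.113), which did not pass 0.05 after adjustment. The control Arid1a list had 44.8% and 51.7% (odds ratio 0.757, adjusted p = 0.583) and the knockout list 33.0% and 35.5% (0.895, adjusted p = 0.715). The shares over all placed peaks were 49.8% for control Arid1a, 34.8% for knockout Arid1a and 50.7% for HDAC6. When predicted (Gm) and clone (Rik) genes were left out of the gene set, so that peaks beside them counted as farther, the HDAC6 share was 25% against 57.0% (odds ratio 0.252, adjusted p = 0.000520) and the knockout share 22.5% against 37.8% (0.480, adjusted p = 0.0270). Control Arid1a then had 39.4% against 51.4% (adjusted p = 0.261). Over the 8 alternatives run, adjusted p ranged from 0.000520 to 0.495 for HDAC6, from 0.0270 to 1 for the knockout and from 0.164 to 1 for control Arid1a. The HDAC6 value of 0.495 came from merging peaks within 100 kb, so that a cluster counted once. The HDAC6 shares were then 37.0% near genes and 43.6% farther away (odds ratio 0.762).

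**Figure D3:**
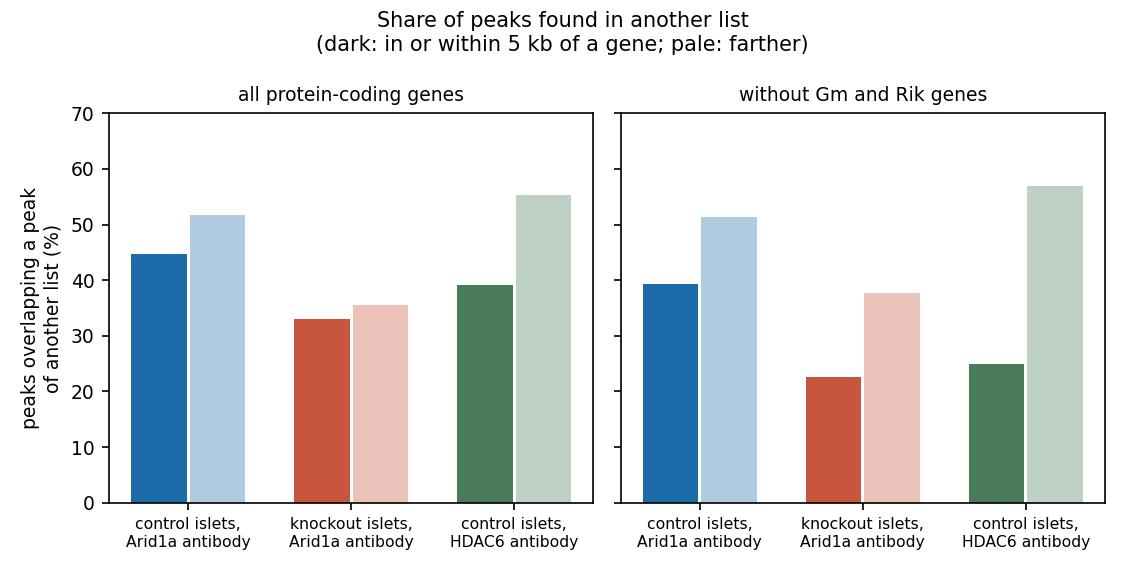
Share of peaks that overlapped a peak of another list by at least 1 bp (y axis, percent), for peaks in or within 5 kb of a gene (dark bars) and farther peaks (pale bars) of each list, with all protein-coding genes (left) and without Gm and Rik genes (right). Near-gene HDAC6 peaks had 39.1% against 55.3% on the left and 25% against 57.0% on the right. The bars carry no replicate error.

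Predicted genes took a large part of the near-gene peaks, above all in the control Arid1a list. Gm genes are computed gene models with a number in place of a name. They were the assigned gene of 32 peaks (47.8%) in control Arid1a, 29 (28.2%) in the knockout and 16 (25%) with HDAC6. Counted as genes with a peak, where repeated peaks count once, their shares were closer, at 31.6%, 24.2% and 20.3%. They make up 5.05% of protein-coding genes. How reads from near-identical gene copies were placed is not given in the sources used here, so the copy that a peak belongs to is uncertain. In the same order of lists, chromosome 14 held 35.8%, 17.5% and 17.2% of near-gene peaks, against 4.50% of the gene territory. Chromosome 5 held 16.4%, 14.6% and 14.1% against 6.34%.

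The densest neighbourhood was around Gm32966, Gm3115 and Gm2974 (chr14:4070133-4207464), with 10, 9 and 4 peaks. Median folds there were 5.95, 6.22 and 5.42 over median backgrounds of 2.06, 1.29 and 1.77 fragments, close to the floor of each list. Gm32966 alone, a model of 173 kb, took 8, 6 and 3 peaks. A second one on chromosome 5 (15467198 to 15622086), around Gm21149, Gm21190, Gm21083 and Speer4d of the spermatogenesis-associated Speer family, had 7, 5 and 3 peaks with median folds of 4.28, 4.33 and 3.48 over higher backgrounds of 4.72, 4.17 and 7.39 fragments. Together they held 25.4%, 13.6% and 10.9% of the near-gene peaks. Further repeats were at Gm10340, with 3, 1 and 3 peaks, and at Gm10406, Gm3727 and Gm40369, with 2 peaks each in control Arid1a.

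Tmem267 was the named gene with the most peaks, with 0 in control Arid1a, 6 in knockout Arid1a and 3 with HDAC6. RefSeq gives it a span of 122 kb on chromosome 13. The knockout peaks had folds of 2.44 to 4.98 over backgrounds of 3.61 to 25.04 fragments, and the HDAC6 peaks had folds of 3.37 to 5.08 over 4.35 to 8.44. Of the 6 knockout peaks, 2 overlapped HDAC6 peaks, with summits 425 bp and 1863 bp from the start. Pdx1 and Mid1 were the other named genes with more than 1 peak in an Arid1a list, beside Myo3a with 2 in the knockout list.

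Many near-gene peaks were in very long genes. The median length of the genes assigned was 27.8 kb for control Arid1a, 44.8 kb for knockout Arid1a and 48.7 kb for HDAC6, against 17.3 kb for all protein-coding genes. Without Gm and Rik genes the medians were 113, 73.8 and 88.0 kb, against 18.3 kb. Genes of 300 kb or more were 22% (11 of 50), 15.9% (14 of 88) and 22.8% (13 of 57) of the genes assigned and 2.57% of all genes. They included Ctnnd2, Mid1, Cntnap5b, Csmd1, Fgf14 and Gtdc1 in both Arid1a lists and Ptprd and Dlg2 with HDAC6.

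Long genes offer more room, and per Mb of territory the shortest genes had the highest density. Genes under 10 kb had 0.297 (control Arid1a), 0.256 (knockout Arid1a) and 0.174 (HDAC6) peaks per Mb, and genes of 300 kb or more 0.0404, 0.0498 and 0.0404. The exact Poisson intervals of these end classes, which take clustered peaks as independent, did not overlap in any list. Density did not fall in order of length, since genes of 50 to 100 kb had 0.0200, 0.0699 and 0.0250 and genes of 100 to 300 kb 0.0476, 0.0919 and 0.0444. Once peaks within 100 kb were merged, the density under 10 kb was 0.154 in control Arid1a, 0.164 in knockout Arid1a and 0.123 with HDAC6. That of genes of 300 kb or more was then 0.0404, 0.0435 and 0.0404. No intervals were computed after merging, so whether the end classes still stand apart was not tested. Among the genes under 10 kb were Gm51598, Gm21149 and Gm10340 beside Neurog3 and Pdx1.

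**Figure D4:**
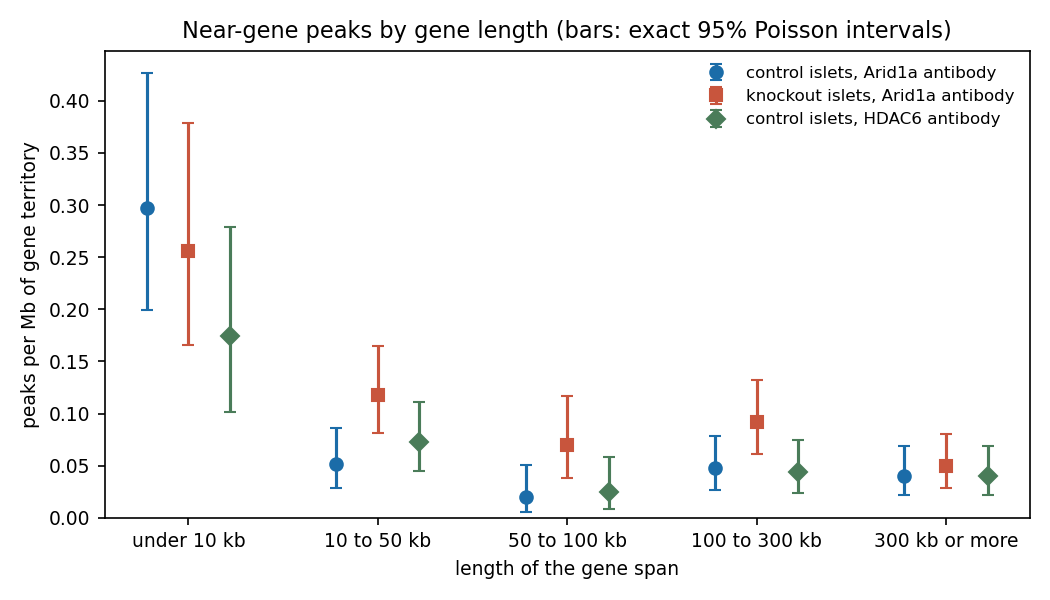
Near-gene peaks per Mb of gene territory (y axis) by length of the gene span (x axis, 5 classes) in the 3 lists, with exact 95% Poisson intervals as bars. The class under 10 kb had the highest value in each list, 0.297, 0.256 and 0.174 peaks per Mb, and genes of 300 kb or more had 0.0404 to 0.0498.

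The synaptic adhesion list had 4 of 40 genes with a peak in any library, beside 0.768% of all protein-coding genes. It was written with earlier results of these data known. Its 4 genes with a peak span 718 to 2271 kb, and the share takes no account of gene length. Cntnap5b and Csmd1 were in both Arid1a lists. Ptprd, a receptor tyrosine phosphatase that organises synapses, had a knockout peak of fold 6.12 and an HDAC6 peak of fold 10.4 that lay 532 kb apart within a gene of 2271 kb, so a shared gene did not mean a shared site. Dlg2, a postsynaptic scaffold gene, had an HDAC6 peak of fold 7.39. Cadherins and protocadherins, the calcium-dependent adhesion proteins, had 4 of 97 genes with a peak, all with HDAC6, namely Pcdh11x (5.21), Pcdh9 (4.67), Cdh18 (4.10) and Cdh6 (3.57), and 0 with Arid1a in either genotype. Over all protein-coding genes the shares were 0.296% with HDAC6, 0.264% with control Arid1a and 0.458% with knockout Arid1a. These 4 were named after their values were seen, and their genes span 148 to 929 kb. Their pileups were 12 to 16 fragments, where the HDAC6 list went down to 9.

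Peaks at transcription start sites were counted for genes with a RefSeq start in the table used. Summits within 1 kb of the start of their own gene were 20% (11 of 55, 10.4% to 33.0%) for control Arid1a, 24.7% (21 of 85, 15.99% to 35.3%) for knockout Arid1a and 15.4% (8 of 52, 6.88% to 28.1%) for HDAC6, where such places make up 3.95% of the gene territory. Within 5 kb the shares were 40%, 43.5% and 32.7% against 18.3%. Leaving out Gm and Rik genes, a setting added after the data were seen, gave 15.4% (4 of 26), 29.1% (16 of 55, 17.6% to 42.9%) and 11.4% (4 of 35, 3.20% to 26.7%). The intervals of the 3 lists overlapped.

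The knockout list, the longest, held most of the start-site peaks outside Gm and Rik genes. They were 16 of its 55 near-gene peaks with a start site, against 4 of 26 in control Arid1a and 4 of 35 with HDAC6. Of the 16, 15 were in the knockout list alone. Of all placed knockout peaks 238 of 365 were in that list alone, and without Gm and Rik genes 22.5% of its near-gene peaks overlapped another list. The 16 start-site peaks belonged to genes of many kinds. Amigo2, a neuronal adhesion molecule, had its summit 28 bp from the start (fold 6.22, pileup 13). The same peak also covered the start of Pced1b on the opposite strand, so it is not particular to Amigo2. Septin9, a filament-forming GTPase, had its summit 77 bp inside the gene (fold 4.40, pileup 9), and Elmod2, a GTPase-activating protein, 148 bp inside (4.88, pileup 10). Further ones were Tmem28, Fignl2, Ccdc105, Klrg2, the ETS factor gene Elf4, the RNA-binding genes Atxn2 and Hnrnpa0, Nexmif, the signalling adaptor gene Crk, the inositol kinase gene Itpk1, Hdac7 and LOC115486439, with folds of 3.57 to 5.72. These 15 pileups ran from 9 to 14 fragments, where the list went down to 8 among near-gene peaks and the background floor was 1.23 fragments, the lowest of the 3 lists. The part of that lower floor in these calls was not tested. The remaining gene, Tmem267, shared its site with HDAC6.

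In control islets the named start sites were Neurog3, Cog1 (4.75), F8a (4.55) and Prmt3 (4.52) with Arid1a, and Neurog3, Ifrd1, Tmem267 (5.08) and Racgap1 (4.81) with HDAC6. Cog1 encodes a Golgi tethering subunit, Prmt3 an arginine methyltransferase and Racgap1 a regulator of cytokinesis. Ifrd1, a transcriptional coregulator, had a pileup of 32 and a fold of 7.82, and its HDAC6 peak covered the whole stretch printed above.

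**Figure D5:**
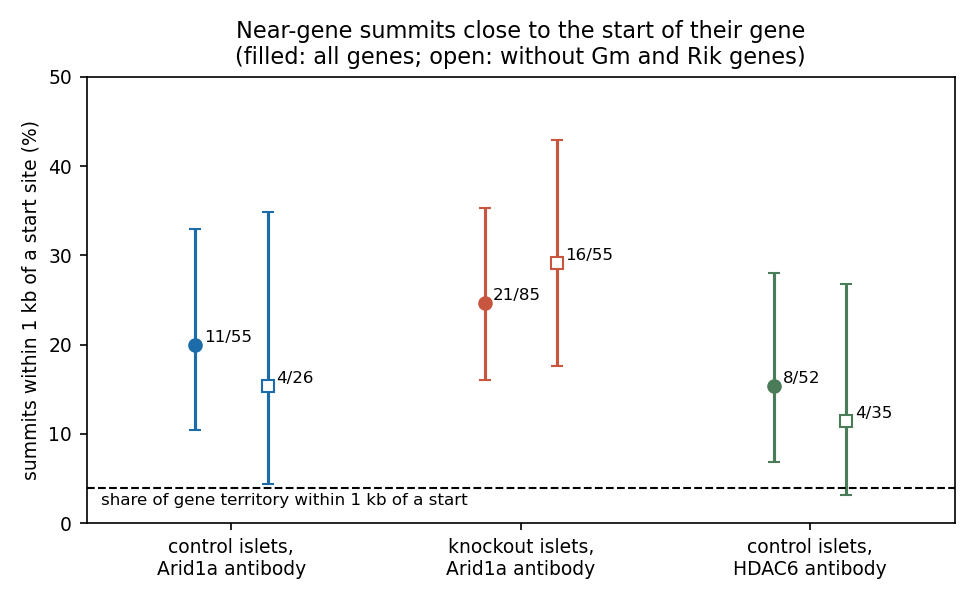
Share of near-gene summits within 1 kb of the transcription start of their own gene (y axis, percent) in the 3 lists, for all genes (filled circles) and without Gm and Rik genes (open squares), with exact binomial 95% intervals as bars and counts beside the points. The knockout list had 21 of 85 and 16 of 55, and the dashed line marks the 3.95% of gene territory that lies this close to a start.

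Peaks overlapped 15 promoter windows, taken from 250 bases before to 50 after a start, of 14 genes. Over the 250 bases before the start, their median GC content was 63.6% against 55.6% over 21044 windows of protein-coding genes, with a range from 40% (Gm40369) to 84% (Amigo2), and their median count of CpG pairs was 18 against 10. Among the sequences printed above, Amigo2 has 38 CpG pairs and Tmem267 39, while Gm3115 has 1 and Gm9758 0. The GC box (GGGCGG, either strand) was present in 11 of the 15, against 43.0% of all windows. The CCAAT box (CCAAT, either strand) was in 8 of the 15, against 35.6%. TATAAA, the core of the TATA box, and TGANTCA, the AP-1 site, were each in 0 of the 15, against 11.7% and 6.17%. The window of Neurog3 has a GC content of 71.2% and 18 CpG pairs, and that of Pdx1, which no peak reached, 54.8% and 10. A match of letters is a description of the window and not a bound site.

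Peaks lay close to the 5 kb limit on both sides of it. Just inside it were an HDAC6 peak 4955 bp from Gm21149 (3.48) and knockout peaks 4897 bp from Gm12888 (7.52) and 4889 bp from Gm6337 (6.56). Just outside were an HDAC6 peak 5070 bp from Rhox4f (4.41), a control Arid1a peak 5111 bp from Gm21149 (2.52) and knockout peaks 5151 bp from Gm5458 (3.996) and 5302 bp from Mecom (5.03). A little farther out were higher folds, at knockout peaks 5489 bp from Dynlrb1 (12.9) and 5516 bp from Pgk2 (10.8), an HDAC6 peak 5607 bp from Pgk2 (8.16) and a control Arid1a peak 5678 bp from Gm10340 (9.30).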

How the data were processed

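ChIP-seq peak lists of 3 islet libraries were used, 1 per group. Peak names in the lists show that the authors called each against a no-IP library. The submitters' processing notes name mm10 as the build and, without roles, edgeR 3.4.6, Bowtie2 2.2.6, Bowtie, bedtools and cutadapt. The peak caller is not given in the sources used here. The pileup is the deposited signal, in unscaled fragments at the summit, per the file headers. The deposited fold enrichment is the authors' ratio of that signal to the local no-IP level. The deposited lists also give −log10 p and q values, used here as q limits.

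The no-IP background was recovered as (pileup + 1) / fold − 1, assuming 1 was added to both terms. Reads per library are unknown. Peaks were joined to 21627 protein-coding gene spans (RefSeq, GRCm38.p6, 1-based positions), and a peak was assigned to the gene it touched or the nearest one. At equal distance the shorter gene was taken. In control Arid1a, knockout Arid1a and HDAC6, 11, 16 and 8 near-gene peaks had more than 1 gene within the limit. Overlap meant at least 1 bp. Start sites and promoter sequences came from RefSeq and covered 17273 genes. Exons and introns were not used here. Computation used Python 3.11.15 with pandas 2.3.3, numpy 2.4.6, scipy 1.17.1 and matplotlib 3.10.9, and scripts were tested on simulated data.

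The members and the 15 gene lists were chosen with earlier results of these data known. Named peaks were the 10 of highest fold per list, those of listed genes, sites in all 3 lists, genes with repeated peaks, up to 10 of highest control fold shared by both control lists or both Arid1a lists, and peaks within 1 kb of a promoter window. Others are marked, and some peaks under this rule are not reported here. Shares carry exact (Clopper-Pearson) 95% intervals and densities exact Poisson ones. Alternatives were other distances (touching, 1 kb, 10 kb), q under 0.01, no Gm or Rik genes, background under 10 fragments, 50% overlap, merging within 100 kb and 1 gene per peak.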

Additional observations from a re-analysis of the deposited data

How the results depend on the processing

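All 18 recomputed values of median fold stayed within the 95% order-statistic interval of the reported median. For the near-gene against farther comparison, the odds ratio of control Arid1a turned to 1.06 when a peak had to touch the gene, 1.17 within 1 kb and 1.53 after merging within 100 kb. That of knockout Arid1a turned to 1.11 with background under 10 fragments and 1.40 after merging. That of HDAC6 stayed between 0.252 and 0.762, with the highest value after merging (Fisher's exact adjusted p = 0.495). The comparison passed the threshold without Gm and Rik genes for the knockout (0.480) and HDAC6 (0.252), and within 1 kb for HDAC6 (0.450, Fisher's exact adjusted p = 0.0427). Without those genes the control Arid1a count was 33, and 14.1% of knockout and 11.4% of HDAC6 peaks overlapped control Arid1a. After merging, the control densities were 0.154 (under 10 kb) and 0.0222 (100 to 300 kb) per Mb and the knockout ones 0.164 and 0.0571. The cause was not tested. Among recomputed values, 17 of 18 counts stayed within 1.5 times, and 46 of 48 overlap shares, 26 of 30 densities and 3 of 3 start-site shares within the counting interval of the reported value. No paired analysis was possible because each group has 1 library. The sample titles carry a common number, and the labels do not say what it stands for.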

Other observations

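Some gene families with a near-gene peak were named after their values were seen, and are given as values. Over all protein-coding genes the share with a peak in any list was 0.768%. Potassium channels had 1 of 94 genes, ionotropic glutamate receptors 1 of 19, GABA receptors 1 of 14 and calcium channels 0 of 26. Kcnq3 (a voltage-gated potassium channel, 4.85) and Grid1 (a glutamate receptor family member, 4.09) were in the knockout Arid1a list. Gabrb1 (a GABA receptor subunit, 4.50) was in the HDAC6 list. Solute carriers had 4 of 389 genes with a peak in any list. Slc9a9 (4.81), Slc39a11 and Slc22a27 were in control Arid1a and Slc20a2 (4.94) in the knockout. The Slc39a11 peak is the one assigned to Cog1 above (4.75). None of these genes had an HDAC6 peak, where 0.296% of all protein-coding genes had one. The Slc22a27 peak had a fold of 2.02, the lowest near-gene value of its list, over a background of 35.7 fragments. Receptors of smell and pheromones, large families in the mouse, gave 1 of 1110 olfactory genes (Olfr183, knockout, 4.57) and 2 of 357 vomeronasal genes (Vmn2r50, control Arid1a, 7.40, and Vmn2r57, knockout, 5.83), where 0.768% of all protein-coding genes had a peak in any list. Wnt7b, a secreted Wnt ligand, had an HDAC6 peak of fold 5.03.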
